A study of Homo sapiens with 16 samples.

Results

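The nuclear pore complex is the channel through which proteins and RNA pass between the nucleus and the cytoplasm, and 56 genes of this complex and its transport machinery were followed here among the 60719 gene identifiers counted. They were chosen by name, and all 56 symbols were matched to an identifier and passed the filter on low counts in every comparison. The 28 nucleoporins, the proteins that build the pore, are 8 members of the Y-complex, 5 of the inner ring, 3 of the central channel, 5 of the cytoplasmic side, 3 of the nuclear basket and 4 of the pore membrane. The 24 transport receptors are 6 importin alpha adaptors, 11 members of the importin beta family and 7 exportins, and the 4 remaining genes run the Ran cycle (RAN, RANBP1, RANGAP1 and RCC1).

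The cells were MDA-MB-231 (parental 231), a human triple-negative breast cancer line, and 231:TKO, the same line with the TXNIP gene deleted by CRISPR-Cas9, for which knockout clones had been isolated from single cells. It was not stated which clone gave which library. Untreated parental 231 and 231:TKO cells gave 2 libraries each. A further 12 libraries came from both populations treated for 48 hours with a non-targeting siRNA (siNT) or with an siRNA pool against Myc (siMyc), with 3 libraries for each population and siRNA, named here 231:TKO+siNT, parental 231+siNT and so on. The study asked how loss of TXNIP, an arrestin-related protein that restrains glucose uptake, changes transcription driven by Myc, so the comparisons are knockout against parental and siMyc against siNT. It was not stated in the labels that replicates came from separate cultures, and the p-values therefore measure the spread between these libraries.

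Transport through the pore works as a cycle. Importins bind cargo in the cytoplasm and release it in the nucleus when they meet RAN loaded with GTP, and exportins bind cargo together with that form of RAN and release it in the cytoplasm, where RANGAP1, helped by RANBP1, makes RAN hydrolyse its GTP. RCC1 sits on chromatin and reloads RAN with GTP. The scaffold of the pore is made of the Y-complex and the inner ring, is anchored by membrane nucleoporins, and lines a central channel whose flexible repeats let receptors through. Proliferating cells use the machinery heavily to import ribosomal proteins and histones and to export ribosomal subunits, tRNA and precursors of microRNA. Myc is a transcription factor that pairs with Max and binds the sequence CACGTG, called an E-box.

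The E-box was searched in the RefSeq promoters (GRCh38.p14), each of 300 bases from 250 before to 50 after a gene's start. A promoter was matched for 50 of the 56 members. CACGTG, which reads the same on both strands, occurred in 7 of these 50 (14%) and in 7.26% of all 35116 promoters in the table. The 7 members were NUP188, NUP50, RAN, KPNA3, IPO4, IPO7 and TNPO2. The 250 bases before the start are shown for the 4 of them that had the largest decreases after siMyc in 231:TKO cells, with CACGTG in capitals. IPO4 lies on the minus strand of chromosome 14 (the printed bases are chr14:24188817-24189066), IPO7 on the plus strand of chromosome 11 (chr11:9384402-9384651), RAN on the plus strand of chromosome 12 (chr12:130871816-130872065) and NUP188 on the plus strand of chromosome 9 (chr9:128947449-128947698).
IPO4: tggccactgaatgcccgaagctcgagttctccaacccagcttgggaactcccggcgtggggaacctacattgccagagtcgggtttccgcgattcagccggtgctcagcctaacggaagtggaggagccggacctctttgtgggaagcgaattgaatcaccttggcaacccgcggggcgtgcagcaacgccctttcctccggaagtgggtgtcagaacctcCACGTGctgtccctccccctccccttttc
IPO7: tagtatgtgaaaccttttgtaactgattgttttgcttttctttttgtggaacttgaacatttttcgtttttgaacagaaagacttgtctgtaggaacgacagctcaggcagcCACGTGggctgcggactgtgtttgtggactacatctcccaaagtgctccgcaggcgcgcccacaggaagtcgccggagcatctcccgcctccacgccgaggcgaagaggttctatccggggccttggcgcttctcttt
RAN: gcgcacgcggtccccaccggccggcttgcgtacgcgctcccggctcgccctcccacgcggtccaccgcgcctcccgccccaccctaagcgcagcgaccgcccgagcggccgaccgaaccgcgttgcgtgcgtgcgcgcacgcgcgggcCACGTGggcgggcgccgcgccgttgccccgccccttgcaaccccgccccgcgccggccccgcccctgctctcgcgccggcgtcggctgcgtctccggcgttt
NUP188: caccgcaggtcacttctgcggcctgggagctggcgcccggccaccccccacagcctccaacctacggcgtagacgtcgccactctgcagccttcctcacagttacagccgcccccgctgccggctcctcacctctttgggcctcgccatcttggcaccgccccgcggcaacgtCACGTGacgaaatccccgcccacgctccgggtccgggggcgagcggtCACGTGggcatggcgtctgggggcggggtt
The E-box began 29 bases before the start in IPO4, 138 in IPO7 and 102 in RAN, and NUP188 had a pair of them, at 77 and 30 bases. A match is a description of the letters in this window and does not show that Myc binds there.

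Total counts per library ranged from 18953668 to 59799444. TXNIP lay at 12.4 and 45.5 CPM (counts scaled to library size) in the untreated 231:TKO libraries and at 6.54 to 10.2 in the siRNA-treated ones, against 283 to 467 in parental cells. MYC lay between 121 and 144 CPM in the 6 siNT libraries and between 58.1 and 67.6 in the 6 siMyc libraries. VIM, CD44, AXL, EGFR and CAV1, which this mesenchymal-like line is known to express, were high (each at least 136 CPM in every library), and among luminal and epithelial genes listed as low in this line, ESR1, PGR and FOXA1 reached at most 0.305, 0.0814 and 0.62 CPM. GATA3 lay at 11.6 to 30.7 and CDH1 at 0.267 to 9.42 CPM, and TFF1 lay at 16.5 to 27.3 CPM in the siRNA-treated parental libraries against at most 0.796 CPM in all others. Counting used single reads for untreated cells and read pairs after siRNA, and a later Ensembl release for the siRNA-treated parental libraries than for the rest, so levels are compared here within an experiment. Parental 231+siNT replicate 1 and parental 231+siMyc replicate 3 stood apart from the other libraries of their groups in the same way. Their deviations from the group means correlated with r = 0.87 over 13448 genes, and 51 of the 56 members deviated in the same direction in both. In parental 231+siNT replicate 1 the members deviated from the mean of the other 2 libraries by -1.15 to 0.45 on the log2 scale, more negatively for genes with longer exons (Spearman correlation of -0.60 over 56 members, a description). The counts and largest changes that rest on this pair are also given without it.

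The members covered a wide range of levels. Per kilobase of exon, the highest mean in untreated parental 231 was that of CSE1L, the exportin that returns importin alpha to the cytoplasm, at 228 CPM per kb. KPNB1 (importin beta itself) at 110, IPO7 at 74.1, the basket gene NUP153 at 63.9 and RAN at 59.6 CPM per kb followed. In parental 231+siNT the order was CSE1L at 157, RAN at 99.8, KPNB1 at 68.0, KPNA2 at 58.8 and RANGAP1 at 55.3 CPM per kb. KPNA5 and IPO4 were the lowest in both, at 0.905 and 1.18 CPM per kb in the untreated and 0.707 and 1.18 CPM per kb in the siNT-treated cells. The IPO4 values are underestimates if reads were lost to an overlapping annotation, because 68.7% of its exon bases are shared on the same strand with another counted gene and featureCounts leaves out a read that fits both equally well. RANBP2, POM121 and RAN have near-identical copies in the genome, and their counts are uncertain to that extent.

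Myc knockdown lowered most of the transport machinery in 231:TKO cells. In 231:TKO+siMyc against 231:TKO+siNT, 41 of the 56 members were lower and 0 were higher at an adjusted p-value of at most 0.05 (edgeR quasi-likelihood test, Benjamini-Hochberg over 22450 genes). Of all genes tested, 13.9% were called lower and 13.3% higher. The fall was seen in 21 of 28 nucleoporins, 3 of 4 Ran cycle genes and 17 of 24 transport receptors. The median log2 fold change was -0.33 for nucleoporins, -0.28 for receptors and -0.55 for the Ran cycle, and it was 0.01 for all genes tested. Against the mean of the siNT libraries, the class medians of single 231:TKO+siMyc libraries were -0.24 to -0.33 for nucleoporins and -0.15 to -0.30 for receptors, ranges that overlapped. RNA counts give shares of the RNA in a sample, so a change in total RNA per cell would not be seen.

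**Figure D1:**
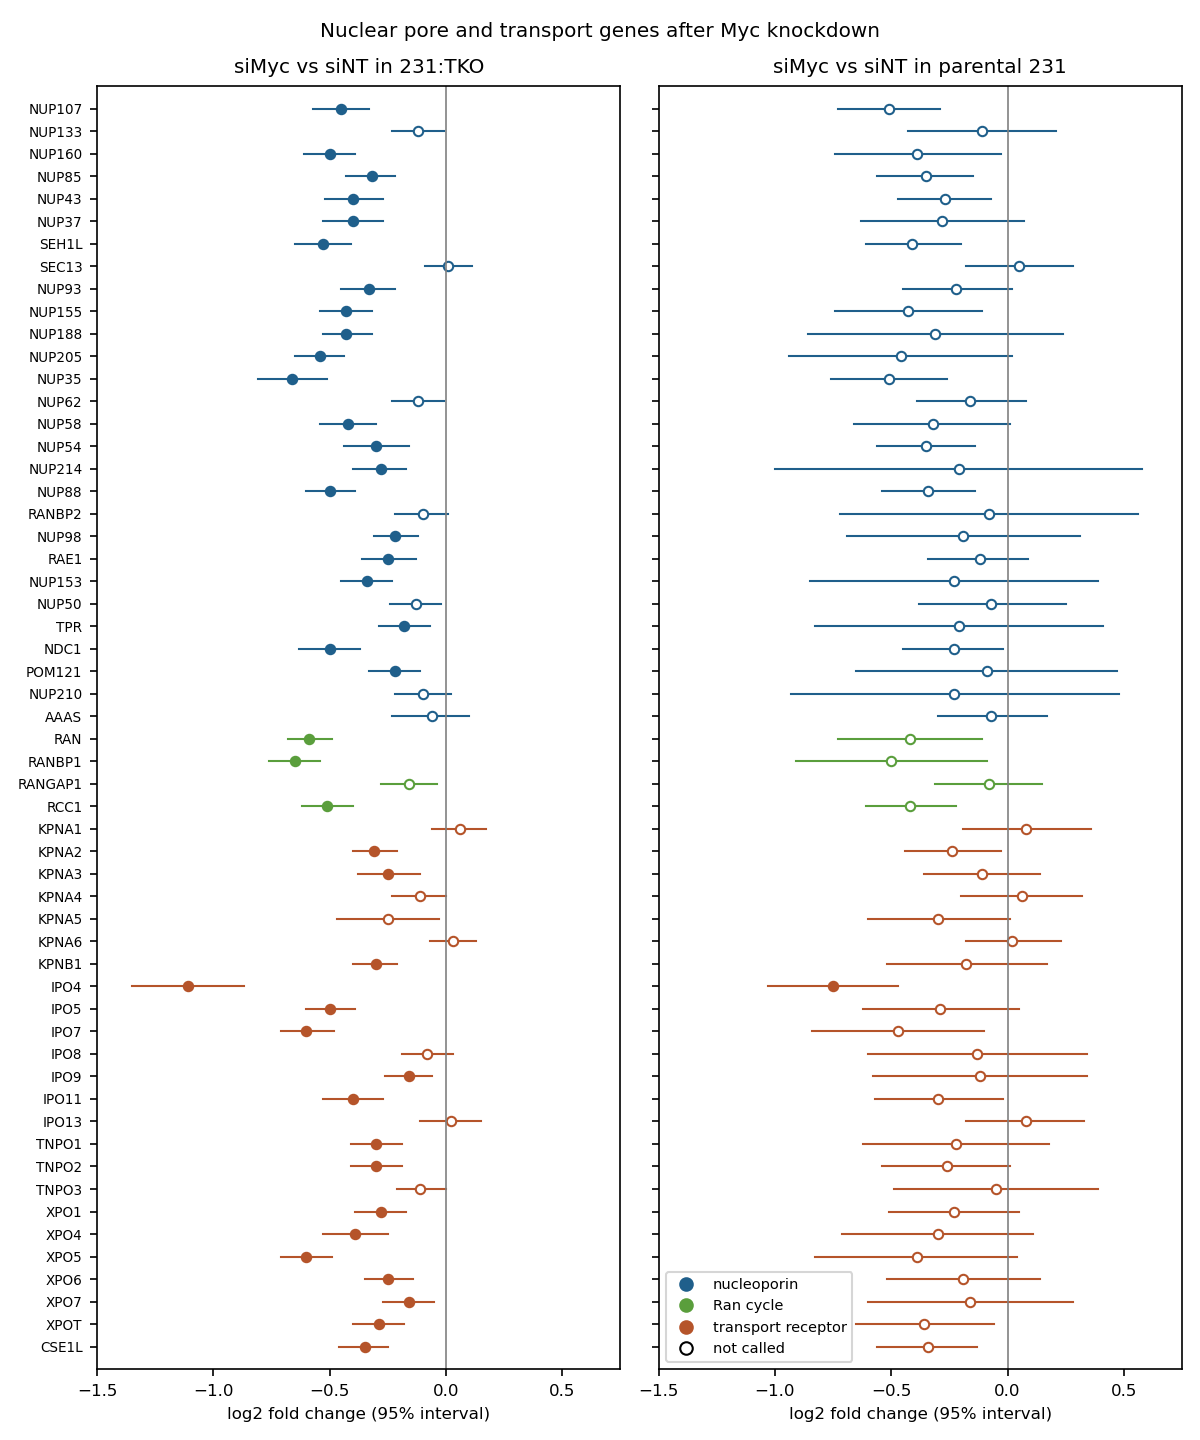
Log2 fold change of each of the 56 members after siMyc against siNT in 231:TKO (left) and parental 231 (right), with 95% intervals from the edgeR fits of 3 against 3 libraries. Filled points passed the adjusted p-value of 0.05, which 41 members did on the left and 1 did on the right, where intervals were wider while 51 of 56 points lay below 0.

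IPO4, which imports histones and ribosomal proteins, fell furthest. IPO4 (ENSG00000196497, chr14:24180219-24188869 on GRCh38) lay at 7.10, 5.96 and 7.05 CPM in 231:TKO+siNT and at 2.95, 3.24 and 3.34 CPM in 231:TKO+siMyc. Its groups did not overlap, and its log2 fold change was -1.11 (SE 0.11, adjusted p = 2.4e-07). NUP35, an inner ring nucleoporin that touches the membrane (chr2:183117513-183161680), lay at 33.7, 29.1 and 32.9 CPM with siNT and at 19.7, 20.7 and 21.8 CPM with siMyc, a log2 fold change of -0.66 (SE 0.07, adjusted p = 4.7e-07). It fell the most among nucleoporins.

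The Ran cycle held the next largest decrease. RANBP1 (chr22:20115938-20127355) lay at 117, 108 and 116 CPM with siNT and at 72.0, 73.4 and 76.2 CPM with siMyc. The groups were well separated, with a log2 fold change of -0.65 (SE 0.05, adjusted p = 1.1e-08). RAN itself went from 447, 440 and 440 CPM to 290, 301 and 313 CPM (-0.59, SE 0.05) and RCC1 fell by 0.51 on the log2 scale (SE 0.05). RANGAP1, which ends the cycle in the cytoplasm, had a log2 fold change of -0.16 (SE 0.06) that did not pass the threshold (adjusted p = 0.0507).

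Among the receptors, every one of the 7 exportins was lower. XPO5, the exporter of microRNA precursors (chr6:43522334-43576038), lay at 115, 113 and 120 CPM with siNT and at 80.6, 76.1 and 78.2 CPM with siMyc, a log2 fold change of -0.60 (SE 0.05, adjusted p = 2.1e-08). The others ranged from -0.16 for XPO7 to -0.39 for XPO4 and included XPO1, the general exportin for leucine-rich signals (-0.28, SE 0.05), XPOT, the tRNA exportin (-0.29, SE 0.05), and CSE1L (-0.35, SE 0.05). In the importin beta family 8 of 11 were lower. IPO7, a carrier of ribosomal proteins (chr11:9384652-9448127), lay at 367, 339 and 380 CPM with siNT and at 232, 236 and 267 CPM with siMyc, a log2 fold change of -0.60 (SE 0.06, adjusted p = 6.2e-08). IPO5 followed with -0.50 and IPO11 with -0.40, while KPNB1, the partner of every importin alpha, fell by 0.30 (SE 0.05). Only 2 of the 6 importin alpha adaptors were called, KPNA2 (-0.31, SE 0.05) and KPNA3 (-0.25, SE 0.06).

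**Figure D2:**
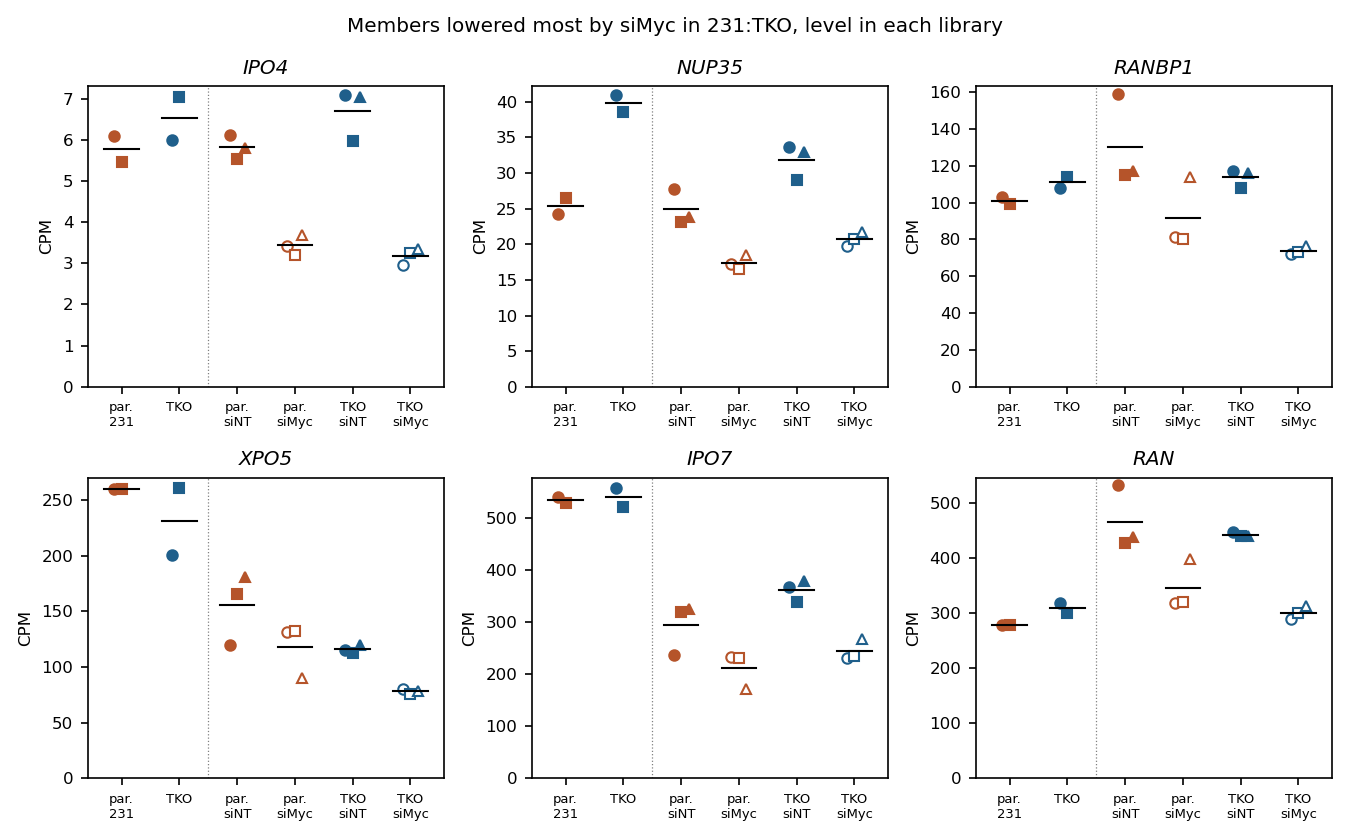
CPM in each of the 16 libraries (filled points untreated or siNT, open points siMyc, blue 231:TKO, orange parental 231, symbol shape the replicate number, black bars group means; the dotted line separates single-read from read-pair libraries). In 231:TKO every siMyc library lies below every siNT library for the 6 genes, with IPO4 going from 5.96 to 7.10 CPM down to 2.95 to 3.34 CPM.

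Within the pore the inner ring fell as a whole, with 5 of 5 members lower (NUP93, NUP155, NUP188, NUP205 and NUP35) and a median log2 fold change of -0.43. In the Y-complex 6 of 8 were lower. NUP43, a Y-complex member that the study singled out (chr6:149724315-149749665), lay at 84.3, 78.2 and 81.5 CPM with siNT and at 59.2, 62.1 and 68.5 CPM with siMyc, a log2 fold change of -0.40 (SE 0.06, adjusted p = 2.6e-05). SEC13, which also coats vesicles that leave the endoplasmic reticulum, was at 0.01 (SE 0.05). The central channel had 2 of 3 members lower, the cytoplasmic side 4 of 5, the nuclear basket 2 of 3 and the membrane group 2 of 4, with NDC1 at -0.50 (SE 0.06) and NUP210 at -0.10 (SE 0.06, not called).

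The 15 members that did not pass the test had log2 fold changes from -0.25 to 0.06. They were NUP133, SEC13, NUP62, RANBP2, NUP50, NUP210, AAAS, RANGAP1, KPNA1, KPNA4, KPNA5, KPNA6, IPO8, IPO13 and TNPO3. The count of 41 stayed between 37 and 47 when any 1 library was left out, against 11.1% to 16.5% of all genes called lower. It was 21 in a single fit of the 12 siRNA-treated libraries, whose spread includes that of the parental libraries. In that fit 4.38% of all genes were called lower, against 13.9% in the fit of the 231:TKO libraries alone.

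Other genes of the pathway were counted in the same comparison. In a list of 39 further pore, mRNA export and Ran-binding genes, 17 were lower and 0 were higher, with a median log2 fold change of -0.14. AHCTF1, which places the Y-complex on chromatin, was at -0.51 (SE 0.06), the mRNA export adaptor NXT1 at -0.45 (SE 0.07) and the helicase DDX39A at -0.43 (SE 0.06). Markers of cycling cells fell at the same time. Of 12 such genes (among them MKI67, TOP2A and MCM2) 11 were lower, with a median of -0.36, and their summed level was 2930 to 3101 CPM in 231:TKO+siNT and 2332 to 2457 CPM in 231:TKO+siMyc. The part of the cycling fraction in the fall of the transport genes was not tested.

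In parental cells most of the same genes also lay lower after siMyc, but with a wider spread between libraries, and 1 of them passed the test. In parental 231+siMyc against parental 231+siNT, 1 of the 56 members was lower and 0 were higher, against 0.354% lower and 0.24% higher among all 23728 genes tested. Nevertheless 51 of the 56 had a negative log2 fold change, with medians of -0.23 for nucleoporins, -0.23 for receptors and -0.42 for the Ran cycle, against 0.00 for all genes. The cycling markers lay lower here too, with a summed level of 2429 to 2901 CPM with siNT and 1910 to 2156 CPM with siMyc, a median log2 fold change of -0.37 and 0 of 12 called, and their part in these values was not tested. The gene called was IPO4, which lay at 6.11, 5.53 and 5.81 CPM with siNT and at 3.43, 3.19 and 3.70 CPM with siMyc, with no overlap (log2 fold change -0.75, SE 0.12, adjusted p = 0.0491). Without adjustment, 19 members had a p-value under 0.05 in the edgeR test, as had 3462 of all genes tested. DESeq2 called 9 members lower, against 2.66% of all genes. The IPO4 call was lost whenever 1 of the 6 libraries was left out, while the value stayed between -0.81 and -0.70. The share of all genes called lower was then 0% to 0.436%.

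NUP35 lay at 27.7, 23.2 and 23.9 CPM with siNT and at 17.3, 16.5 and 18.5 CPM with siMyc, and NUP43 at 59.7, 57.2 and 55.8 against 47.5, 47.7 and 47.0 CPM. Their groups did not overlap, and their log2 fold changes of -0.51 (SE 0.11) and -0.27 (SE 0.09) missed the threshold with adjusted p-values of 0.0839 and 0.206.

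The wide spread was seen in the pair of libraries that stood apart. RANBP1 lay at 159, 115 and 117 CPM in parental 231+siNT and at 81.3, 80.3 and 114 CPM in parental 231+siMyc, so that replicate 1 of the first and replicate 3 of the second were the high ones. XPO5 showed the mirror image, with 120, 166 and 181 CPM with siNT and 131, 132 and 90.3 CPM with siMyc, the same libraries being low. With a factor for this pair, a setting chosen after seeing the data, 42 of the 56 members were lower and 0 were higher, while the calls among all genes rose to 13.1% lower and 13.7% higher. With the pair left out, 39 were lower and 0 higher, against 10.9% and 9.94% of all genes, including NUP35 (-0.48), RANBP1 (-0.53), XPO5 (-0.40), IPO7 (-0.48) and NUP43 (-0.25). The medians were -0.26 for nucleoporins and -0.22 for receptors without the pair, against -0.23 for both with all libraries.

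The responses of the populations were compared member by member. These comparisons share no library. The log2 fold changes were negative in both for 51 members, positive in both for 4 and of opposite sign for 1, and they correlated across the 56 members with a Pearson r of 0.92 and a Spearman rho of 0.90, given as a description because genes are not independent replicates. In the test of the difference between the responses, in 1 fit of the 12 siRNA-treated libraries, 0 of the 56 members were called in either direction, against 0% higher and 0% lower of all 25812 genes tested (edgeR; 1039 genes had an unadjusted p-value under 0.05, of which 0 were members, and DESeq2 called 0 genes higher and 6 lower, with 0 members). The differences, 231:TKO minus parental 231, ranged from -0.33 for IPO4 (95% interval -0.70 to 0.03) to 0.16 for NUP210 (-0.73 to 1.04). For NUP35 the difference was -0.12 (-0.41 to 0.17), for RANBP1 -0.13 (-0.53 to 0.28), for XPO5 -0.18 (-0.63 to 0.27), for IPO7 -0.10 (-0.48 to 0.28) and for NUP43 -0.09 (-0.34 to 0.15). A count of 0 does not show that the responses are alike, since the intervals of most named members are wide against their responses. With the factor for the pair 0 members were called, against 0.395% of all genes higher and 0.174% lower, and the differences ranged from -0.33 to 0.12. With the pair left out 0 members were called, against 0.0999% and 0.152%, and the range was -0.37 to 0.18. The siRNA-treated populations also differ in the annotation release and in a number in the headers of the count tables, which cannot be told apart from the population in this contrast.

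Members with and without an E-box both lay low after siMyc. In 231:TKO cells 6 of the 7 members with CACGTG in the promoter were called lower, with a median log2 fold change of -0.43, and 31 of the 43 without it were, with a median of -0.30. In parental cells the medians were -0.31 and -0.23. Among all genes over 10 CPM with a promoter, 30.1% of 864 with CACGTG and 25.7% of 7075 without it were called lower in 231:TKO cells, with medians of -0.02 and -0.01. NUP35 and XPO5, among the members that fell most, had no CACGTG in these 300 bases, and RANBP1 and NUP43 had no matched promoter.

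Few members passed the test between untreated knockout and parental cells. In untreated 231:TKO against parental 231, 3 of the 56 members were higher and 2 were lower, against 5.43% higher and 4.18% lower among all 19965 genes tested. All 5 were nucleoporins, and 0 of the 24 receptors and 0 of the 4 Ran cycle genes passed the test. The members' share was near the 9.61% of all genes called in either direction, and so few calls do not set the classes apart. The median log2 fold change was -0.03 for nucleoporins and -0.02 for receptors, against 0.00 for all genes.

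NUP210, a membrane nucleoporin that differs strongly between tissues (ENSG00000132182, chr3:13316235-13420322), was the member that moved most. It lay at 82.2 and 85.0 CPM in parental 231 and at 2.23 and 6.45 CPM in 231:TKO. Both knockout libraries were far below both parental ones, with a log2 fold change of -4.28 (SE 0.49, adjusted p = 0.0167). The other 4 called members changed less. RANBP2, which forms the filaments on the cytoplasmic face (chr2:108719482-108785809), lay at 124 and 119 CPM in parental 231 and at 187 and 188 CPM in 231:TKO (0.62, SE 0.06, adjusted p = 0.00983). NUP35 lay at 24.3 and 26.5 against 41.0 and 38.6 CPM (0.64, SE 0.09, adjusted p = 0.0190). NUP54, of the central channel, lay at 72.0 and 72.0 against 104 and 99.5 CPM (0.49, SE 0.06, adjusted p = 0.0156). NUP88, of the cytoplasmic side, was lower with 147 and 149 against 116 and 116 CPM (-0.36, SE 0.06, adjusted p = 0.0245).

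These 5 calls rest on 2 libraries in each group. Leaving out 1 of them leaves a lone library, which is then assumed to vary like the other group. The number of calls then changed greatly among all genes tested, so it does not measure these members. The 231:TKO replicates also differed from each other. NUP43 lay at 145 and 144 CPM in parental 231 and at 150 and 81.3 CPM in 231:TKO, so its log2 fold change of -0.33 (SE 0.30, not called) was -0.85 without the first and 0.04 without the second of the knockout libraries.

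Neighbouring genes moved together with 4 of the 5. In windows of 20 Mb along the chromosome, the other genes around NUP35, RANBP2 and NUP54 had median log2 fold changes of 0.41, 0.53 and 0.46, and those around NUP88 -0.35. Those around NUP210 had a median of 0.00. All 7 members whose window had shifted by at least 0.25 (the 4 above with NUP155, NUP205 and TNPO3) had values in the direction of their window. Over the 55 members other than NUP210 the correlation of member and window was 0.78, as a description. With the window shifts taken out, the values were 0.19 for NUP35, 0.09 for RANBP2, 0.05 for NUP54 and -0.02 for NUP88, and none of these was called. NUP210 kept a value of -4.20 but missed the threshold at an adjusted p of 0.0594 in the edgeR test. IPO13, an importer and exporter of the importin beta family, was the 1 member called with the shifts out (-0.43, adjusted p = 0.0205).

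**Figure D3:**
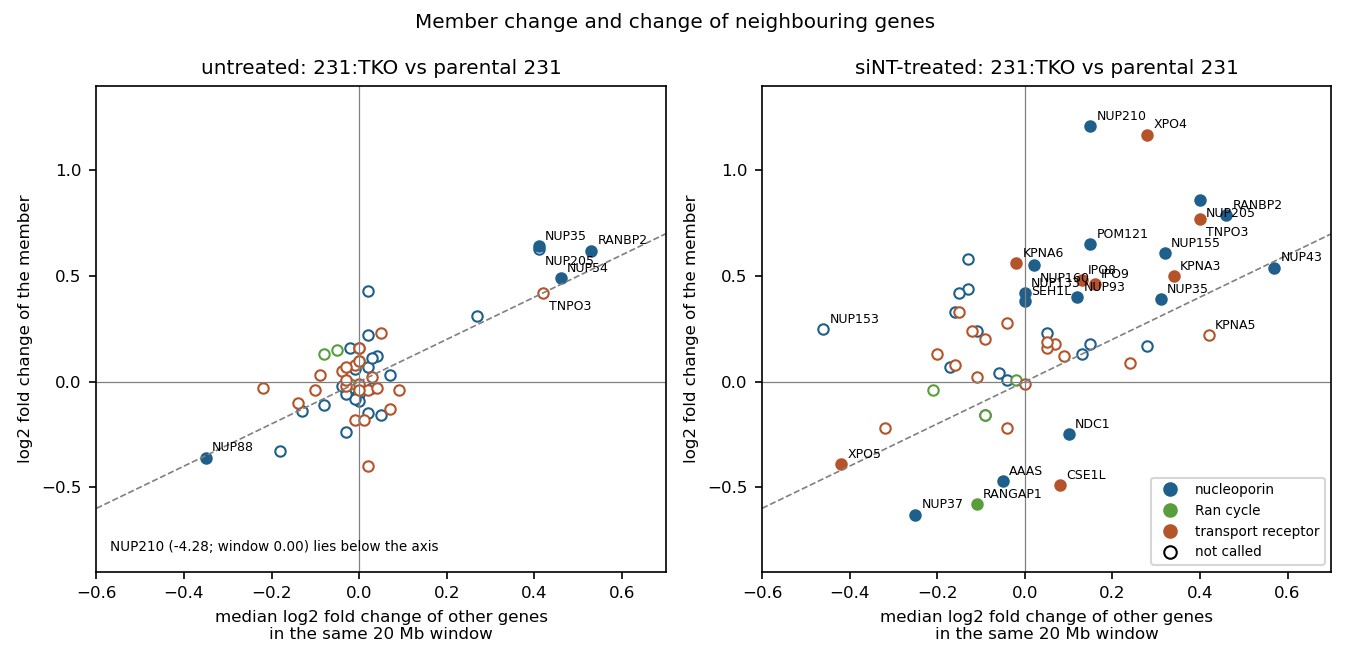
Log2 fold change of each member (vertical axis) against the median log2 fold change of the other genes in its 20 Mb window (horizontal axis), for untreated (left) and siNT-treated (right) 231:TKO against parental 231; colours mark the class, the dashed line equal values, and filled points passed the test. On the left NUP35, RANBP2, NUP54 and NUP88 lie on the side of their windows and NUP210 at -4.28 lies below the axis, and on the right NUP210 at 1.21 and XPO4 at 1.17 lie far above the line.

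The siNT-treated cells allow the same comparison in other libraries, and there more members were called, as were more of all genes tested. Over all genes, 36.8% were called in either direction, against 9.61% in untreated cells. In 231:TKO+siNT against parental 231+siNT, 17 of the 56 members were higher and 6 were lower, against 16.1% higher and 20.7% lower among all 23310 genes tested. Nucleoporins had a median log2 fold change of 0.36, with 11 higher and 3 lower, and receptors of 0.19, with 6 higher and 2 lower. The other sets lay the other way. The Ran cycle had a median of -0.1, with 0 higher and 1 lower. The list of 39 further pathway genes had a median of -0.11, with 6 higher and 10 lower. The median of all genes was -0.03. The populations were counted with different annotation releases and carry different header numbers, which cannot be told apart from the knockout here. Without parental 231+siNT replicate 1, which stood apart, 27 members were higher and 8 lower, against 22.4% and 25.8% of all genes. The medians were 0.25 for nucleoporins and 0.10 for receptors. With the window shifts taken out, 19 members were higher and 4 lower, against 16.2% and 17.8% of all genes. The medians were then 0.31 for nucleoporins and 0.15 for receptors.

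The largest increases were in NUP210 and XPO4. NUP210 lay at 68.0, 73.3 and 68.8 CPM in 231:TKO+siNT and at 17.5, 36.5 and 39.0 CPM in parental 231+siNT, so each knockout library was above each parental one (log2 fold change 1.21, SE 0.26, adjusted p = 0.00731; 0.94 without parental replicate 1). XPO4, an exportin for factors that include a translation initiation factor (chr13:20777329-20903048), lay at 49.7, 44.5 and 52.4 against 17.3, 24.5 and 25.2 CPM (1.17, SE 0.14, adjusted p = 8.0e-05). For XPO4 too, each knockout library lay above each parental one, and its value was 1.03 without parental replicate 1 and 0.92 with the window shifts out.

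The next increases were in NUP205, RANBP2 and TNPO3, the importer of splicing factors. NUP205 lay at 220, 213 and 230 CPM in 231:TKO+siNT and at 89.7, 139 and 145 CPM in parental 231+siNT (0.86, SE 0.16, adjusted p = 0.00195). RANBP2 lay at 150, 141 and 154 against 55.6, 104 and 105 CPM (0.79, SE 0.22, adjusted p = 0.0226). TNPO3 lay at 105, 102 and 108 against 49.7, 66.4 and 73.5 CPM (0.77, SE 0.13, adjusted p = 0.00086). None of the 3 overlapped between the groups, and parental replicate 1 was the lowest library for each, without which the values were 0.69, 0.56 and 0.64. Their windows had also shifted upward, by 0.40, 0.46 and 0.40, and with the window shifts taken out they were at 0.48, 0.33 (not called) and 0.38. Among the other members called higher were 4 of the 5 inner ring genes, with NUP155 at 0.61 (SE 0.11), NUP93 at 0.40 (SE 0.10) and NUP35 at 0.39 (SE 0.10) beside NUP205. Without parental replicate 1 these were at 0.52, 0.35 and 0.49, and with the window shifts out at 0.30, 0.32 and 0.03, the last not called. The importin alpha KPNA6 lay at 103, 102 and 105 against 68.5, 71.7 and 75.2 CPM (0.56, SE 0.08), and was at 0.54 without that library and at 0.55 with the window shifts out.

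The decreases were smaller. NUP37, of the Y-complex, lay at 32.7, 33.6 and 31.7 CPM in 231:TKO+siNT and at 62.5, 48.3 and 45.3 CPM in parental 231+siNT (-0.63, SE 0.12, adjusted p = 0.00172). Its window had shifted by -0.25, and it was at -0.47 without parental replicate 1 and at -0.35 with the window shifts out, where it was not called (edgeR adjusted p = 0.0651). RANGAP1 lay at 216, 232 and 213 against 361, 319 and 334 CPM (-0.58, SE 0.09, adjusted p = 0.00036) and CSE1L at 435, 386 and 424 against 589, 604 and 596 CPM (-0.49, SE 0.09, adjusted p = 0.00106). For both, no knockout library reached the parental range, and without parental replicate 1 they were at -0.52 and -0.48. AAAS, which NDC1 anchors at the membrane, lay at 23.2, 28.7 and 23.6 against 36.9, 34.7 and 35.2 CPM (-0.47, SE 0.10) and NDC1 was at -0.25 (SE 0.09). XPO5 lay at 115, 113 and 120 against 120, 166 and 181 CPM, with groups that touched through parental replicate 1 (-0.39, SE 0.14, adjusted p = 0.0432). Without that library it was at -0.53. NUP43 was higher, with 84.3, 78.2 and 81.5 against 59.7, 57.2 and 55.8 CPM (0.54, SE 0.09, adjusted p = 0.00055). The windows of these last genes had shifted by -0.42 and 0.57, and with the window shifts taken out XPO5 was at 0.01 and NUP43 at -0.08, neither called.

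**Figure D4:**
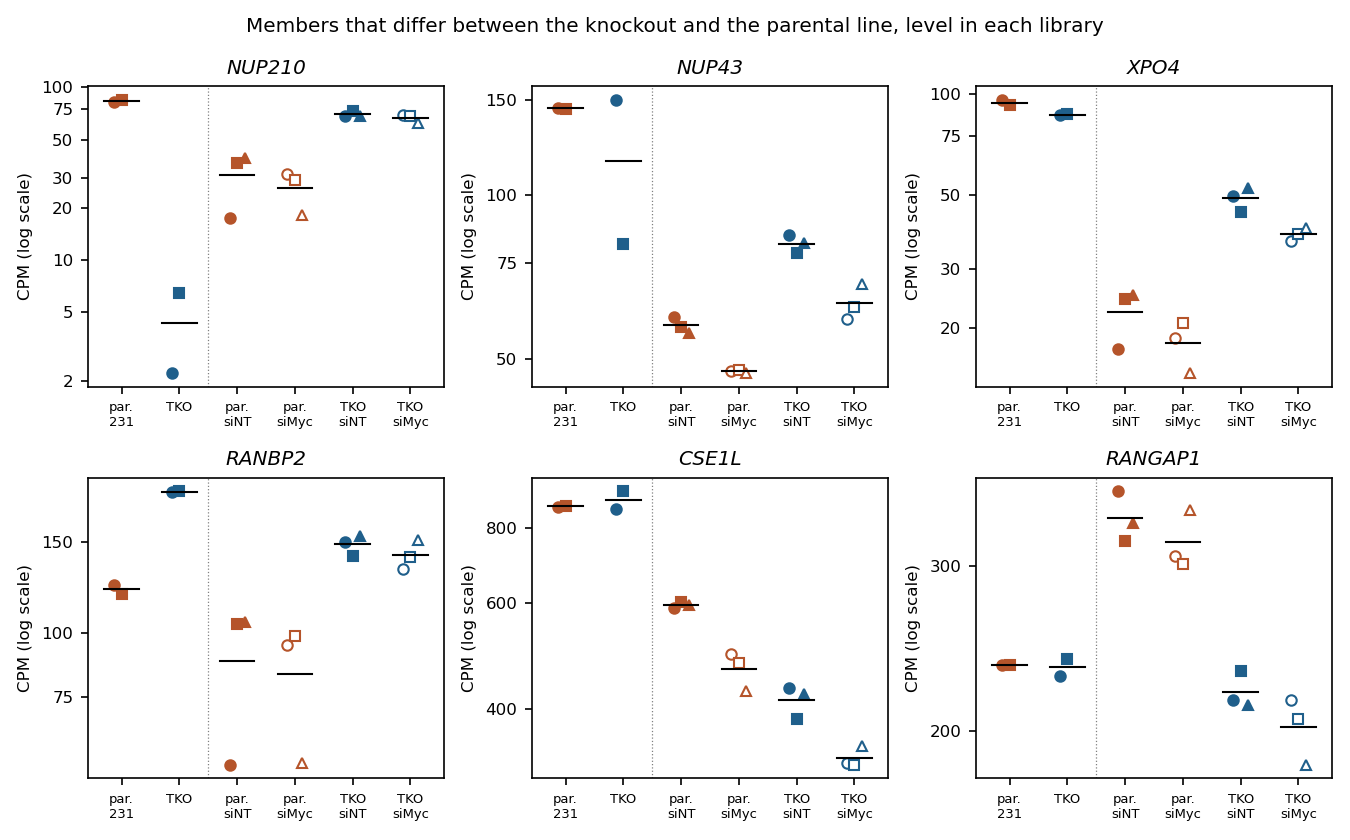
CPM on a log scale in each of the 16 libraries for 6 members that differed between 231:TKO (blue) and parental 231 (orange); open points are siMyc libraries, symbol shapes replicate numbers and black bars group means. NUP210 lies at 2.23 and 6.45 CPM in untreated 231:TKO but at 62.3 to 73.3 CPM in siRNA-treated 231:TKO, where parental libraries lie at 17.5 to 39.0 CPM.

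The knockout comparisons of untreated and of siNT-treated cells share no library, and they were set side by side for these genes. NUP35 and RANBP2 were called higher in both, 0 members were called lower in both, and NUP210 was called in opposite directions. NUP35 and RANBP2 lie in windows that had shifted upward in both, and with the window shifts out neither was called in either. Across the 56 members the log2 fold changes of the comparisons correlated with r = -0.19, a value set by NUP210, since it was 0.39 over the other 55, and across the 9402 genes over 10 CPM it was 0.39 as well. These are descriptions. The difference itself was tested in 1 fit of the 10 libraries, a test added after the data had been seen. The knockout effect was higher in siNT-treated than in untreated cells for 6 of the 56 members and lower for 3, against 6.2% higher and 7.91% lower among all 25112 genes tested. The share of members called in either direction, 16.1%, was near the 14.1% of all genes. For NUP210 the difference was 5.49 (SE 0.66, 95% interval 3.92 to 7.06, adjusted p = 0.00213), and 5.16 without parental 231+siNT replicate 1. XPO4 followed with 1.30 (SE 0.20, adjusted p = 4.4e-04), and 1.10 without that library. The NUP210 level spanned 38.1-fold over the 16 libraries, from an untreated 231:TKO library at the bottom to an untreated parental 231 library at the top. Untreated and siRNA-treated cells also differ in read type and in the number in the headers of the count tables. The siNT-treated parental libraries differ in annotation release as well, and the knockout clone behind each library was not stated. These differences, and a possible difference in clone, cannot be told apart from treatment here.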

How the data were processed

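RNA was sequenced in 16 libraries of MDA-MB-231 cells. The authors aligned reads to GRCh38 with STAR, counted them on genes with featureCounts 1.6.3 on the reverse strand by largest overlap, and deposited raw counts per gene without normalization or filtering. The 56 members and all other lists were chosen with earlier results of these data known. Genes with more than 5 counts summed over a comparison's libraries were tested with edgeR 4.0.16 (R 4.3.3), TMM scaling and the quasi-likelihood test, each comparison on its own libraries. CPM are TMM-scaled over the 16 libraries. The steps were tested on simulated data. Depth limits small counts: the lowest count of any member in any library was 67 (NUP210). Named members were, in each comparison, the 5 called higher and the 5 called lower with the largest changes, and NUP43; other values follow the roles. Alternatives were DESeq2 1.42.0, its size factors, other count filters, a replicate block, windows of 20 Mb with at least 15 genes over 1 CPM taken out, 1 fit of 12 libraries and each library left out. The pair factor, the pair left out and the test of the difference between the knockout effects were chosen after seeing the data. The authors used a pair of Ensembl releases, with 60675 and 60664 genes, and 4 members (TNPO1, TNPO2, XPO4 and POM121) differ in exon length between them.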

Additional observations from a re-analysis of the deposited data

Results flagged for a closer look

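For 9 members the difference between 231:TKO and parental 231 was itself different in siNT-treated and in untreated cells (edgeR quasi-likelihood test of the difference in 10 libraries, adjusted p of at most 0.05). They are 16.1% of the 56, against 14.1% of all 25112 genes tested, so the count is near the share of all genes and is not a result about these members. The differences, siNT-treated minus untreated on the log2 scale, were 5.49 for NUP210, 1.30 for XPO4, 0.57 for KPNA6, 0.56 for NUP93, 0.52 for KPNA3, 0.51 for IPO13, -0.60 for NUP37, -0.57 for RANGAP1 and -0.52 for CSE1L. NUP210 went from -4.28 in untreated to 1.21 in siNT-treated cells, and XPO4 from -0.13 to 1.17. Without parental 231+siNT replicate 1 all 9 were still called, with 5.16 for NUP210, 1.10 for XPO4, and 0.41 to 0.49 for the other 4 that were higher and -0.57 to -0.49 for the 3 that were lower. With window shifts taken out, KPNA3 (0.24) and NUP37 (-0.34) were not called. NUP210 and XPO4 passed the threshold in every one of the 15 alternative settings, KPNA6 in 14, NUP93 and RANGAP1 in 13, CSE1L in 12, KPNA3 in 10, IPO13 in 8 and NUP37 in 7. Untreated and siNT-treated libraries also differ in single against paired reads and in header number, and the siNT-treated parental libraries in annotation release. These differences, and a possible difference in knockout clone, cannot be told apart from the treatment.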

How the results depend on the processing

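The fall of the members after siMyc in 231:TKO kept its direction under every alternative run. The count of 41 moved past 1.5 times under the fit of the 12 siRNA-treated libraries (21, against 4.38% of all genes called lower). The nucleoporin median in this comparison lay between -0.37 and -0.31 with 1 library left out. In parental 231 the 1 member lower (0.354% of all genes) became 9 with DESeq2 (2.66%), 0 with its size factors (0.236%), 2 without a filter (0.672%) and 3 with more than 5 counts in every library (0.861%). It became 14 in the fit of the 12 libraries (3.65%), 42 with the pair factor (13.1%) and 39 with the pair left out (10.9%). With any 1 library left out it became 0, against 0% to 0.436% of all genes. For untreated 231:TKO against parental 231, the 3 higher became 5 with DESeq2 (6.3% of all genes) and 0 with window shifts taken out (4.34%). The 2 lower became 1 with window shifts taken out (4.87%). Leaving out 1 library gave 0 to 18 higher and 0 to 14 lower, against 0% to 18.5% and 0% to 19% of all genes. Each of these fits leaves a lone library in a group. Their counts therefore do not measure the members in the untreated comparison. The nucleoporin median there was -0.02 without a filter, -0.02 with window shifts taken out and -0.03 to 0.00 with 1 library left out, and the receptor median was 0.02 with window shifts taken out and -0.02 to 0.00 with 1 library left out. For the siNT-treated knockout, leaving out 1 library gave 11 to 27 members higher, against 12% to 22.4% of all genes. For the difference between the knockout effects, the 6 higher became 10 with DESeq2 (8.18% of all genes) and 10 with more than 5 counts in every library (12.1%). Both its counts moved with 1 library left out, and they are not given because some of these fits leave 1 library in a group. Sign changes were NUP43 in untreated cells without 231:TKO replicate 2 (0.04 against -0.85 without replicate 1), and in siNT-treated cells XPO5 (0.01) and NUP43 (-0.08) with window shifts taken out. In each comparison, alternatives were counted for NUP43 and for the members called higher or lower with the largest changes, up to 5 each. The differences between the knockout effects were not part of this count, and fits that leave 1 library in a group were. Of 466 such values under an alternative, 394 kept direction and side of the threshold, 66 were no longer called, 3 became called and 3 reversed. The causes of these moves were not tested.

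Same-numbered libraries did not regularly deviate together. Their deviations correlated at 0.02 in untreated cells, a single value because 2 libraries of a group deviate equally in opposite directions. The values were -0.10, 0.09 and 0.21 in siRNA-treated 231:TKO and 0, -0.12 and 0.11 between the siNT groups. In siRNA-treated parental 231 they were -0.77, 0.58 and -0.70, and there the pair that stood apart carries different replicate numbers. The numbers were therefore not taken as pairs. A replicate block left 1 member lower in untreated cells (1.91% of all genes) and 0 lower in parental 231+siMyc (0% of all genes). It changed no other count of members by more than 1.5 times, and it was not run for the difference between the knockout effects.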
